A study of Mus musculus with 6 samples.

Results

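Gene desert regions are stretches of accessible chromatin that lie far from any protein-coding gene, here those more than 100 kb from the nearest protein-coding gene body and called as an ATAC-seq peak in at least 2 of 6 libraries. There were 2872 of them, 5.12% of the 56122 regions called in at least 2 libraries (reproducible regions hereafter), which are themselves part of 82993 union regions. Members were selected on the peak calls, without regard to treatment, and on distance in the RefSeq annotation, so membership itself is no result. The study measured open chromatin by ATAC-seq, in which a transposase cuts accessible DNA, in haematopoietic stem cells (HSCs) sorted from bone marrow as CD48-CD150+LSK cells, about 5000 cells per library. All mice were wild-type C57BL/6J. They had been injected intraperitoneally with tunicamycin at 2 mg/kg (3 libraries), an inhibitor of N-glycosylation that causes stress of the endoplasmic reticulum (ER), or with DMSO, its solvent (3 libraries). The labels state no age, sex or interval between injection and sorting. Nor do they say whether libraries came from separate animals, so each p below reflects variation among these 6 libraries alone, some or all of which may be technical.

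Gene deserts are long intervals without protein-coding genes. They often flank genes for transcription factors and other regulators, and they can hold enhancers that contact a promoter over great distances. In blood, remote enhancers of this kind are known for Myc in mouse, and long noncoding RNA (lncRNA) genes, microRNA genes and the variable segments of antigen receptor loci also lie in such intervals.

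The name fits protein-coding genes only. Of the 2872 regions, 763 (26.6%) overlapped an annotated lncRNA gene, 63 (2.19%) overlapped an antigen receptor gene segment, and 880 (30.6%) overlapped some noncoding entry. Among the 880 overlapping regions 24.9% were called in all 6 libraries, against 20.2% of the regions without such an entry and 37.1% of all reproducible regions.

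Sequence was at hand for promoters and microRNAs. RefSeq promoter windows (250 bases before to 50 bases after the start, build GRCm38.p6) of 98 noncoding genes were overlapped by 96 gene desert regions, 3.34% of the total, and 31.25% of those 96 were called in all 6 libraries. The first 7 sequences below are promoter windows overlapped by a gene desert region, chosen after their values were seen. All but Gm26901 were chosen because later results return to them. Lower case marks the window, given 5′ to 3′ on the strand of the gene, and capitals mark matches, on either strand, to any of 9 short motifs whose letters are given after the sequences.
Gm4258 promoter, chr1:137898272-137898571, plus strand: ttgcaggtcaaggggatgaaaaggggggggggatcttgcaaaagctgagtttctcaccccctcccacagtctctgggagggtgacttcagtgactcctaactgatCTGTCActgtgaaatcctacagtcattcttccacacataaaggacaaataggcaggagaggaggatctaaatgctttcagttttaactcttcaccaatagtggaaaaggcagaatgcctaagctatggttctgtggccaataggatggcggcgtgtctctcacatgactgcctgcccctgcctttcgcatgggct
Gm26901 promoter, chr1:7398047-7398346, minus strand: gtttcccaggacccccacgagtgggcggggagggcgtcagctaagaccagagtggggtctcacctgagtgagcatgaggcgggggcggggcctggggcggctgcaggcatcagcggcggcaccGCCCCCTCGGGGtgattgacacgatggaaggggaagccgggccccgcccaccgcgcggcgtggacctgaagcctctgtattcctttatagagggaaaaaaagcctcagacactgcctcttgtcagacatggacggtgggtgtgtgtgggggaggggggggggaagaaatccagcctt
Dubr promoter, chr16:50732724-50733023, minus strand: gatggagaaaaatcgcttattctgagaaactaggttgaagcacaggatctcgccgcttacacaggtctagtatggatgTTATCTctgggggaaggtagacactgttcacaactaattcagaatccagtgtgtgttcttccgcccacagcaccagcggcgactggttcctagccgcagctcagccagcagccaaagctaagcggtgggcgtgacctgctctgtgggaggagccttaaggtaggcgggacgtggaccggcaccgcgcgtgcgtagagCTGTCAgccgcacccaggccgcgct
Firre promoter, chrX:50635272-50635571, minus strand: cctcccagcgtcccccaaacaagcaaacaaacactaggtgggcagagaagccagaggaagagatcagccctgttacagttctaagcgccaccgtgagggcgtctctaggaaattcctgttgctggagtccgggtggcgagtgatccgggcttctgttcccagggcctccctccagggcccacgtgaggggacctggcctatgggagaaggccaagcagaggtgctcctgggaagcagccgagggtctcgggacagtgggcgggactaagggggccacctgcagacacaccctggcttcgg
Lncpint promoter, chr6:31218425-31218724, minus strand: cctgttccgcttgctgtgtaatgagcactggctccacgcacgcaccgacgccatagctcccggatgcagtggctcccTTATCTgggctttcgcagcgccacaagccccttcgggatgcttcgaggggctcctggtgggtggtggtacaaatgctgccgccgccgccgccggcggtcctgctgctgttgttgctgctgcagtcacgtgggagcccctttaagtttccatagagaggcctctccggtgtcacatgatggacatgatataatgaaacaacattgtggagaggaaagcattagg
Morrbid promoter, chr2:128429302-128429601, minus strand: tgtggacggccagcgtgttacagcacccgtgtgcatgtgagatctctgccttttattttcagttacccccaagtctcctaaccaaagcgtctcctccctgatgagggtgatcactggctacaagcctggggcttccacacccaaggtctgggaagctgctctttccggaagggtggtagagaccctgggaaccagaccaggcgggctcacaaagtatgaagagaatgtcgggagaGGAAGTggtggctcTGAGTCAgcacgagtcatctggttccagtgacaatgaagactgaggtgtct
Mir99ahg promoter, chr16:77329078-77329377, plus strand: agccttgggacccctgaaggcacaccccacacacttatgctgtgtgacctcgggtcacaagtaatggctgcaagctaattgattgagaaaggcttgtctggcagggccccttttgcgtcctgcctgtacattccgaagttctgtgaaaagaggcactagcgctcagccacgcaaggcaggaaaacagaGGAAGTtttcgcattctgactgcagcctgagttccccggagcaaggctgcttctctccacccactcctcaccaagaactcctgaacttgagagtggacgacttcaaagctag

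The region over the promoter of Gm4258, a lncRNA gene between Nr5a2 and Ptprc, had fold enrichments (each peak's own deposited ratio over background) of 10.2, 10.1 and 11.0 in tunicamycin libraries 1 to 3, against 11.2, 10.3 and 8.63 in DMSO libraries 1 to 3. At Dubr, a lncRNA gene between Ccdc54 and Cblb, the folds were 8.67, 7.90 and 8.27 after tunicamycin and 8.997, 8.70 and 7.89 after DMSO. Both regions were therefore called in all 6 libraries, and the groups overlapped at each, in fold and in fold percentile within the library. The CpG-rich promoter of Lncpint, a lncRNA known as a p53 target, was also called in all 6, yet with low folds of 4.17, 3.76 and 3.60 after tunicamycin and 3.67, 3.28 and 3.02 after DMSO. Its highest DMSO fold lay above the lowest tunicamycin fold, so the folds overlapped too. Ranked as percentiles among all peaks of the same library, the groups did not overlap there, at 21.9, 14.4 and 7.64 after tunicamycin and 7.52, 2.78 and 0.747 after DMSO.

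Over the set, promoters overlapped by a gene desert region (114 windows) had a median GC content of 49.3% and a median of 4 CpG, against 44.7% and 3 for the 1960 other desert promoters. The RUNX letters TGTGGT were found in 32.5% of the overlapped promoters, 19.2% of the other desert promoters and 16.8% of all 32851 promoters. For MEIS, TGACAG, the shares were 36.0%, 21.3% and 19.2%, for ETS, GGAAGT, 28.9%, 21.3% and 23.8%, and for the E-box, CAGCTG, 21.1%, 15.4% and 16.3%. GATA letters, AGATAA, went the other way, at 14.9% of overlapped and 18.2% of other desert promoters, with 11.2% of all promoters. AP-1 letters, TGANTCA, stood at 10.5%, 10.4% and 7.81% in the same order. The ATF4 composite TGATGNAA, bound by a factor of the stress response, was in 3.51% of overlapped promoters, 7.96% of other desert promoters and 3.97% of all promoters. The HLF letters TTACNTAA stood at 1.75%, 3.52% and 2.32%, and the CTCF core at 1.75%, 0.051% and 1.15%. Some letters can overlap one another in a window, these shares were not tested, and a match is a description of the letters and not a bound site.

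MicroRNA hairpins lie in deserts as well: 104 of 1005 mouse hairpins with coordinates were more than 100 kb from a protein-coding gene, 19 of them within 10 kb of a gene desert region and 36 within 25 kb. Many of these 36 lie in 1 cluster between Rtl1 and Dio3, where the same region (chr12:109749725-109750228) is nearest. The counts are therefore not counts of separate loci. The following mature sequences (RefSeq, GRCm38.p6) belong to hairpins in 4 desert intervals, with the seed, bases 2 to 8, in capitals.
mmu-miR-29a-3p, chr6:31062673-31062694, minus strand: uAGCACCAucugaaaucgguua
mmu-miR-29b-3p, chr6:31063025-31063047, minus strand: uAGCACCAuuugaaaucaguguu
mmu-miR-100-5p, chr9:41531437-41531458, plus strand: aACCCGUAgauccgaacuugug
mmu-miR-125b-5p, chr9:41581940-41581961, plus strand: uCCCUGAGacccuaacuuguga
mmu-miR-99a-5p, chr16:77598940-77598961, plus strand: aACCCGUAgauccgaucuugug
mmu-let-7c-5p, chr16:77599672-77599693, plus strand: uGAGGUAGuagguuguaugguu
mmu-miR-221-3p, chrX:19146307-19146329, minus strand: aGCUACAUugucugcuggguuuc
mmu-miR-222-3p, chrX:19146901-19146923, minus strand: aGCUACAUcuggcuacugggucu
The miR-29a and miR-29b forms share 1 seed, miR-100 and miR-99a share another, and miR-221 and miR-222 have yet another in common. The miR-29a and miR-29b-1 hairpins, between Klf14 and Mkln1, lay 9.14 and 8.79 kb from a gene desert region called in all 6 libraries, with folds of 4.56, 5.93 and 5.10 after tunicamycin and 7.09, 5.80 and 4.505 after DMSO. The hairpins of miR-222 and miR-221, a pair on the X chromosome, were 10.5 and 11.1 kb from a region called in 5 libraries. That of miR-100 was 5.38 kb from a region called in 4, and those of miR-125b-1, let-7c-1 and miR-99a were 30.1, 44.2 and 44.9 kb from the nearest. The promoter of Mir99ahg, the lncRNA host of miR-99a and let-7c-1, was itself within a region with folds of 4.92, 5.68 and 7.61 after tunicamycin and of 8.24 and 5.03 in DMSO libraries 1 and 2. DMSO library 3 did not call it.

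The libraries differed in how many peaks they held, 44952, 56865 and 47789 after tunicamycin and 62478, 38217 and 28501 after DMSO. Read depth is unknown from peak lists, and a region that a library did not call is not shown to be closed. A difference of another kind also cut across the treatment. Peaks at the Y-linked genes Eif2s3y, Uty and Ddx3y were present in tunicamycin libraries 1 and 2 and DMSO libraries 1 and 2, and none was called at these genes in the third library of either group. Kdm5d, also Y-linked, had no peak in any library. At Xist, the X-linked RNA of X inactivation, 2 peaks each were called after tunicamycin, against 1, 0 and 1 after DMSO. The labels give no sex, and whether the mice behind the third libraries differed in sex was not tested. Of the cell type markers examined, 5 of 10 HSC genes had a region called in all 6 libraries within the gene or 1 kb of it (Hlf, Mecom, Procr, Kit and Gata2), and so did 2 of 6 markers each for neutrophils or monocytes, erythroid cells and lymphoid cells. The granulocyte genes Elane and Mpo, the globin genes Hba-a1 and Hbb-bs, and the lymphoid gene Cd3e had no such region, and neither did the HSC genes Slamf1 and Ly6a.

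Gene desert regions were called somewhat less often than other reproducible regions, in both groups. The libraries called 1832, 2374 and 1895 of the 2872 after tunicamycin (63.8, 82.7 and 66.0%), against 2435, 1511 and 1004 after DMSO (84.8, 52.6 and 35.0%). The highest and the lowest library were both DMSO libraries, so the groups overlapped completely. Mean call rates were 70.8 ± 10.3% after tunicamycin and 57.5 ± 25.3% after DMSO (SD, n = 3 each), a difference of 13.4 percentage points (two-sided exact permutation test, p = 0.5, adjusted p = 1 over 5 tests). The difference was 28.1 points without DMSO library 1 and 2.90 points without DMSO library 3. The smallest p that 3 against 3 libraries allow is 0.10. After subtraction of the call rate of all reproducible regions in the same library, the means were -8.31 ± 3.79 points after tunicamycin and -8.65 ± 2.52 points after DMSO, which differed by 0.339 points (exact permutation p = 0.8, adjusted p = 1).

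Within a library, folds were ranked as percentiles among all its peaks. The median percentile of called gene desert regions was 50.6, 54.3 and 54.2 after tunicamycin and 58.8, 48.2 and 45.1 after DMSO. Group means were 53.0 ± 2.09 after tunicamycin and 50.7 ± 7.17 after DMSO, a difference of 2.36 (exact permutation p = 0.6, adjusted p = 1), within the spread of the DMSO libraries. Median peak width averaged 342.5 ± 13.1 bp after tunicamycin and 342.5 ± 31.8 bp after DMSO (exact permutation p = 1, adjusted p = 1). Gene desert regions made up 4.15, 4.22 and 4.04% of each library's peaks after tunicamycin, against 3.95, 4.02 and 3.57% after DMSO. Every tunicamycin library lay above every DMSO library on this measure, with means of 4.14 ± 0.0883% and 3.85 ± 0.241% in tunicamycin and DMSO libraries and a difference of 0.288 points (exact permutation p = 0.10, the smallest possible, adjusted p = 0.5). It was 0.157 points without DMSO library 1 and 0.481 points without DMSO library 2. Intergenic regions 10 to 100 kb from a gene showed the same order, at 16.3, 16.0 and 16.2% of the peaks after tunicamycin and 15.1, 15.5 and 13.5% after DMSO. None of these 5 measures passed 0.05.

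Classes were compared within each of the 6 libraries. All classes had been selected by the same rule, on calls in these same libraries. Call rates therefore depend on that selection and are not independent between libraries. Widths and fold percentiles were taken over called regions drawn from the same set in each library, so they are not independent either. Each p of these class tests is given as a description only. The call rate of gene desert regions was lower than that of the rest in 6 of 6 libraries, by 4.22 to 11.8 points, with a mean difference of -8.94 ± 3.04 points (SD, n = 6; two-sided exact sign-flip permutation p = 0.03125, adjusted p = 0.0469 over 6 tests). Against intergenic regions 10 to 100 kb from a gene (10477 regions), the difference was -3.54 ± 1.77 points, again lower in 6 of 6 (exact p = 0.03125, adjusted p = 0.0469). Called peaks were narrower than in the rest by 55.5 to 67 bp in each library, with a mean difference of -60.3 ± 4.81 bp (exact p = 0.03125, adjusted p = 0.0469), while the difference from intergenic regions was -5.42 ± 3.38 bp (exact p = 0.03125, adjusted p = 0.0469). The median fold percentile differed from the rest by -3.66 ± 4.00 (4 libraries lower, 1 higher, 1 equal; exact p = 0.125, adjusted p = 0.15) and from intergenic regions by 0.825 ± 1.53 (exact p = 0.3125, adjusted p = 0.3125). An exact p of 0.03125 is the smallest 6 libraries allow, and with autosomes only the adjusted p was 0.0625 for both call rates and for width against the rest, and 0.0938 for width against intergenic regions. Fixed windows around summits also gave an adjusted p of 0.0625 for both call rates. In both settings the exact sign-flip p of the call rates stayed at 0.03125, as did that of width against the rest on autosomes. Their adjusted p rose because fewer tests of the family stood at that smallest value.

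**Figure D1:**
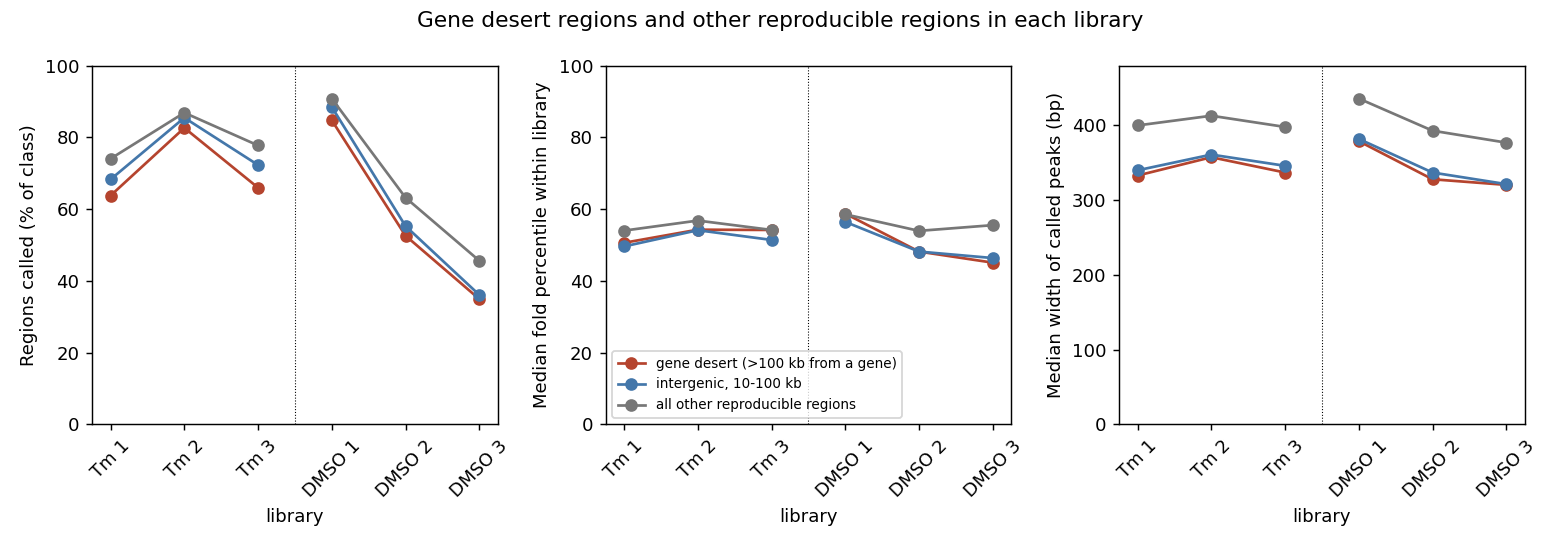
Percent of regions called, median percentile of fold enrichment within the library and median width of called peaks (bp) in each library, tunicamycin (Tm) left of DMSO, for gene desert regions, intergenic regions and all other reproducible regions. Points are single libraries. The red points lie lowest in the left panel in every library, at 35.0 to 84.8%, and about 60 bp under the grey points in the right panel.

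The plot by library shows gene desert regions with the lowest call rate in each library and a wide range among DMSO libraries. Counted by number of calling libraries, 834 gene desert regions were called in 2 libraries, 504 in 3, 421 in 4, 491 in 5 and 622 in all 6. The last number is 21.7% of gene desert regions, beside 26.5% of intergenic regions and 37.1% of all reproducible regions. Width followed the number of calls, with a median of 342 bp for regions called in 2 libraries and 663 bp for those called in 6, a merged region being at least as wide as its widest peak. Over all gene desert regions the merged width had a median of 451 bp, against 463 bp for intergenic regions and 512 bp for the rest.

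**Figure D2:**
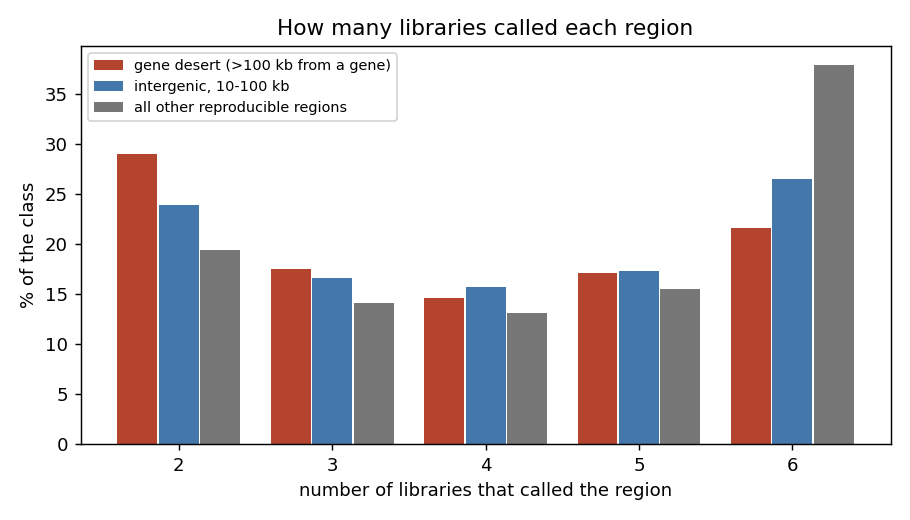
Percent of each class (vertical axis) by the number of libraries, 2 to 6, that called the region (horizontal axis). Red bars are gene desert regions, blue bars intergenic regions 10 to 100 kb from a gene and grey bars all other reproducible regions. Gene desert regions have the tallest bar of the 3 classes at 2 libraries (29.0%) and the shortest at 6 (21.7%).

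Distance beyond 100 kb ran to 2137.5 kb, with a median of 179.7 kb and quartiles of 131 and 279.9 kb. Of 1659 regions at 100 to 200 kb, 23.7% were called in all 6 libraries. Further out these were 187 of 985 regions at 200 to 500 kb, 16.1% of 192 regions at 500 kb to 1 Mb, and 27.8% of 36 regions beyond 1 Mb. Inside genes the share was 43.0%. The most remote region, chr1:102628116-102628405 between Cntnap5b and Cdh20, had folds of 6.51, 7.16 and 6.49 after tunicamycin and of 10.1 and 6.92 in DMSO libraries 1 and 2. In the same gap a region 1411 kb from Cntnap5b was called in all 6, with folds of 7.32, 10.3 and 9.95 after tunicamycin and 12.7, 8.42 and 7.22 after DMSO. At the threshold itself, the nearest region inside was 100.04 kb from Kbtbd8 and the nearest outside 99.94 kb from Ifngr1.

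Deserts were sparse. The 785 Mb of sequence more than 100 kb from a gene, 29.2% of the sequence between the first and last genes of the chromosomes, held 3.61 gene desert regions per Mb, against 27.9 reproducible regions per Mb in the other sequence. Of 5725 union regions in deserts, 2853 (49.8%) were called in a single library and so fell outside the 2872. Regions were also unevenly spread. Of 1689 gaps over 200 kb between neighbouring genes, 976 held none, 257 held 1, and 66 held 10 or more, which together had 1115 regions (39.3% of the 2836 lying between genes). The longest gaps without any region were those between Pcdh20 and Pcdh9 (4542 kb), Olfm4 and Pcdh17 (4420 kb), Slc39a10 and Tmeff2 (3975 kb), Dsel and Cntnap5a (3820 kb), Stim2 and Pcdh7 (3595 kb) and Cdh6 and Cdh9 (3552 kb).

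The 10 gaps with most regions included 2 antigen receptor loci. The gap between Adam6a and Zfp386, which is the variable segment array of the immunoglobulin heavy chain locus Igh, held 53 regions, 44 of them over a gene segment. Its regions were called 35, 50 and 35 times after tunicamycin and 47, 21 and 13 times after DMSO. The gap between Gm36448 and Dad1, over the T cell receptor locus Tcra and Tcrd, held 35, of which 16 overlapped a segment, with 20, 26 and 23 called after tunicamycin and 28, 17 and 4 after DMSO. In both gaps DMSO library 3 called the fewest regions, as it did over all gene desert regions. The other 8 were Sall3 to Galr1 (32 regions), Cd83 to Jarid2 (30), Gadd45g to Diras2 (28), Id2 to Rnf144a (27), Serp2 to Lacc1 (25), Klf14 to Mkln1 (24), Prl5a1 to Sox4 (24) and Mn1 to Cryba4 (23).

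Gaps beside blood transcription factor genes were among the denser ones. Of 50 genes listed as blood transcription factors, 28 (56%) bounded a gap over 200 kb, against 12.8% of all 21887 protein-coding genes, and 25 (50%) bounded one with at least 1 gene desert region, against 6.02%. The last share was of like size for neuronal adhesion and synaptic genes (43 of 74, 58.1%) and for developmental transcription factors (30 of 65, 46.2%), so this share did not set blood transcription factors apart from these lists. Their gaps held 256 regions at 10.4 per Mb, against 3.61 per Mb over all gaps. Cytokine and growth factor genes had 81 regions at 6.24 per Mb, developmental transcription factors of other tissues 120 at 3.41 per Mb, and neuronal adhesion and synaptic genes 83 at 0.586 per Mb in 142 Mb of desert. Olfactory and vomeronasal receptor genes had 23 regions at 4.35 per Mb, also above the value over all gaps. These lay in 4 of the 20 gaps of that list. Among these gaps was that between Olfr1324 and Stk26, which held the chain of 14 regions in Firre described below. Of 43 ER stress response genes, 4 (9.30%) bounded a gap over 200 kb, against 12.8% of all genes, and 2, Sec61b and Sel1l, bounded a gap with a region, 8 regions in all. The lists were chosen with earlier results of these data known and were not tested.

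**Figure D3:**
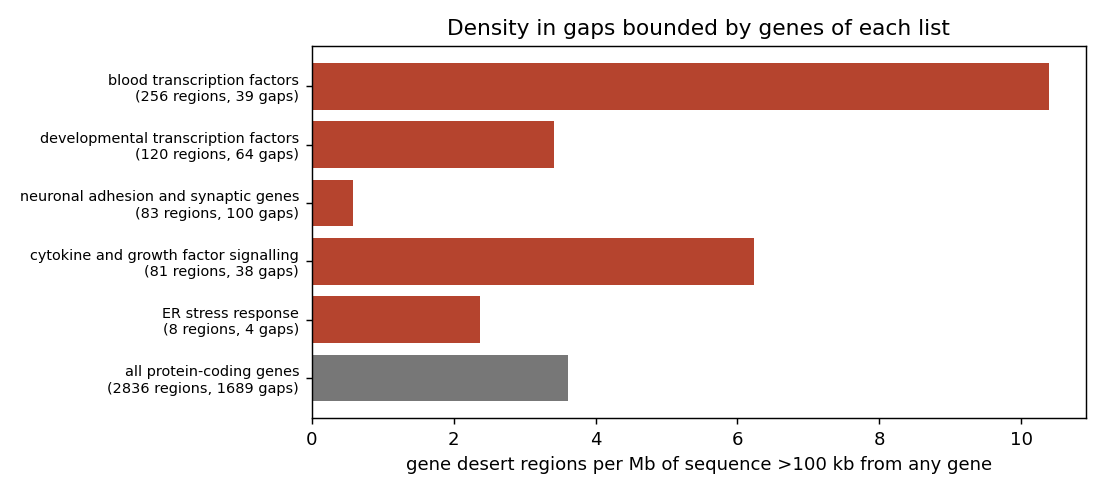
Gene desert regions per Mb of desert sequence (horizontal axis) in gaps bounded by a gene of each list (vertical axis). Red bars are lists and the grey bar all protein-coding genes. The list of olfactory and vomeronasal receptors, at 4.35 per Mb, is not drawn. The bar of blood transcription factors reaches 10.4 per Mb and that of neuronal adhesion and synaptic genes 0.586, on either side of 3.61 for all genes.

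Among gaps of blood transcription factors, those of Id2 (27 regions), Sox4 (24), Runx1 (23), Bcl11a (21), Tcf4 (19), Myc (19), Klf4 (15), Mycn (13), Zeb2 (12) and Tox (10) held most. In the list as a whole 2 of 256 regions were called in every tunicamycin and no DMSO library, and 2 the other way round, beside 1.01 and 0.144% of all reproducible regions, and nothing is read from counts of 2. The call rates of its 256 regions were 60.2, 84.0 and 66.4% after tunicamycin and 87.1, 53.1 and 32.0% after DMSO, near those of all gene desert regions in each library.

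Myc encodes a driver of growth and proliferation, and an enhancer cluster far downstream of it is known in mouse to sustain its expression in blood stem and progenitor cells. The gap between Myc and Gsdmc held 19 regions, most of them in 2 clusters. Those near Myc, 114 to 222 kb from it, lay mostly over the lncRNA gene Pvt1, which 10 gene desert regions overlapped. At the far end 6 regions stood 1611 to 1675 kb from Myc, of which 4 were called in all 6 libraries. The region at 1657.6 kb (chr15:63647958-63648681) had folds of 11.1, 11.0 and 11.9 after tunicamycin and 12.9, 11.0 and 7.39 after DMSO. The region at 1674.8 kb had 7.99, 7.67 and 11.7 after tunicamycin and 9.74, 5.37 and 5.00 after DMSO. The groups overlapped at both. Between the clusters there were 3 regions, each called in 2 tunicamycin libraries and in no DMSO library, with folds of 3.43 to 6.51. Among all gene desert regions, 81 (2.82%) were called in tunicamycin libraries 2 and 3 alone. Another 52 (1.81%) were called in tunicamycin libraries 1 and 2 alone, and nothing is read from these 3.

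Runx1, a factor that HSCs need for their emergence, had 23 regions between it and Setd4, spread over the gap and not in 2 clusters. Only 2 of them were called in all 6 libraries. The first, 202 kb from Runx1, had folds of 8.06, 10.4 and 8.47 after tunicamycin and 8.59, 6.39 and 5.35 after DMSO, and the second, 327 kb away, had 6.62, 6.72 and 8.33 after tunicamycin and 7.17, 7.55 and 5.91 after DMSO. The folds overlapped at both. In percentiles within the library the groups overlapped at the second region only, while the first stood at 79.4, 90.8 and 80.8 after tunicamycin and at 76.3, 64.7 and 53.5 after DMSO.

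**Figure D4:**
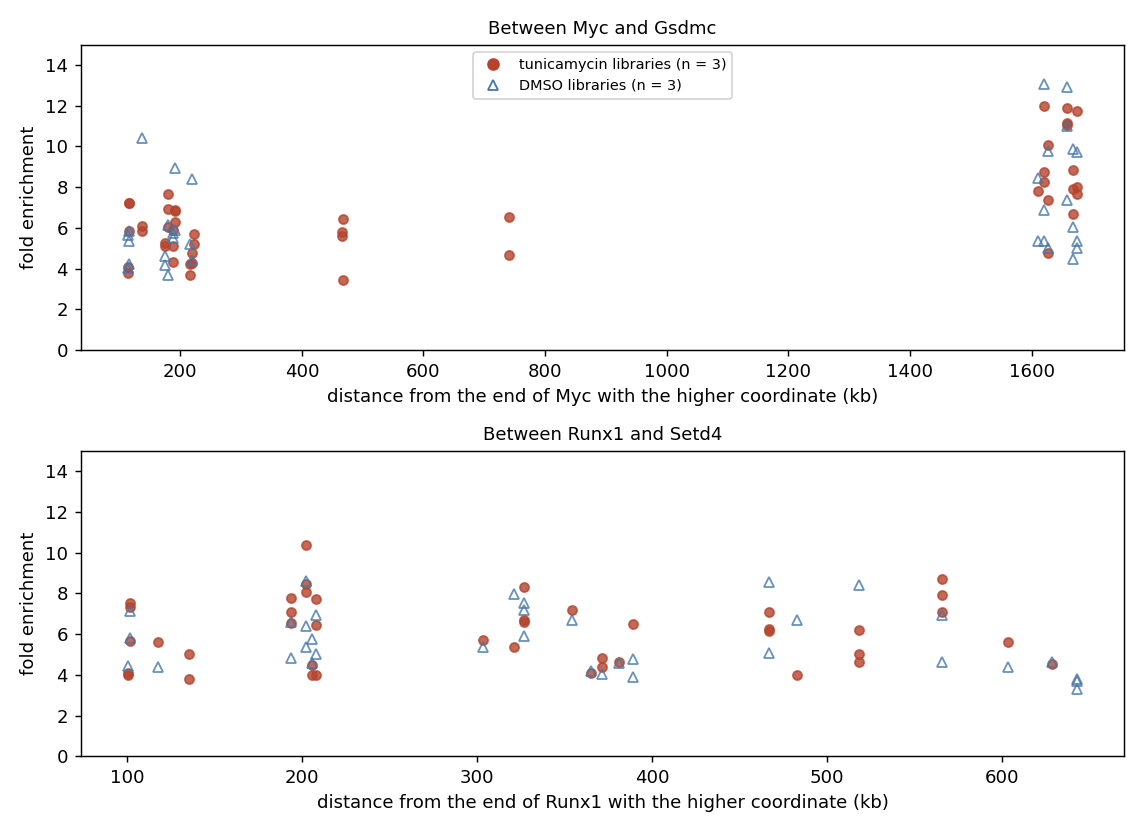
Fold enrichment of each called peak (vertical axis) against the distance of the region from Myc (upper panel) or Runx1 (lower panel) in kb; filled red circles are the 3 tunicamycin libraries and open blue triangles the 3 DMSO libraries. Regions beside Myc form a near and a far cluster, the far one at 1611 to 1675 kb with folds up to 13.1, while those beside Runx1 are spread from 101 to 643 kb.

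Beside Mycn, a relative of Myc, 8 of 13 regions were called in all 6 libraries. The region 115 kb from Cyria in that gap had folds of 10.6, 10.6 and 9.83 after tunicamycin and 10.8, 10.6 and 7.14 after DMSO. The short desert between Kit, the receptor for stem cell factor by which HSCs are sorted, and Kdr held 5 regions, 4 of them called in all 6. The highest ranked of these had folds of 9.82, 10.4 and 11.2 after tunicamycin and 11.6, 9.58 and 7.32 after DMSO. Between Tgfbr2, a TGF-beta receptor, and Rbms3, 5 of 7 regions were called in all 6. The one 188 kb from Tgfbr2's neighbour Rbms3 had 8.17, 10.7 and 9.11 after tunicamycin and 11.6, 8.19 and 8.73 after DMSO. Cxcr4, the homing receptor for CXCL12, had 9 regions towards Thsd7b, with 5 called in all 6, and the groups overlapped at each region quoted here.

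Of the ER stress genes, Sec61b, a subunit of the ER translocon, shared its gap with Nr4a3, which held 6 regions. The nearest to Sec61b, 120.5 kb away, had folds of 8.02, 8.57 and 8.71 after tunicamycin and 11.3, 6.63 and 6.78 after DMSO. Sel1l, a component of ER-associated degradation, had 2 regions in its gap, neither called in all 6. No region of the ER stress list was called in every tunicamycin library and no DMSO library, or the reverse. The list holds only 8 regions, and the shares over all reproducible regions are 1.01 and 0.144%, so nothing is read from this.

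Gene desert regions often stood in chains. A neighbouring gene desert region lay within 25 kb for 1778 of 2872 (61.9%), and 86 chains of 5 or more held 654 regions (22.8%). Chained regions were called in all 6 libraries in 24.7% of cases, against 16.6% of the 1094 isolated ones. By library, chained regions were called more often in 5 of 6, DMSO library 3 being the exception (34.5% of chained and 35.7% of isolated regions). The median fold percentile was lower for chained than for isolated regions in 5 of 6, for example 49.6 and 52.5 in tunicamycin library 1, and higher in DMSO library 3, at 45.4 and 42.9. With any reproducible region counted as a neighbour, the share was 64.1% of gene desert regions, 86.3% of intergenic regions and 88.2% of the rest.

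The longest chain, 22 regions over 175.5 kb between Bcl2l11 and Spdye4c, ran along Morrbid, a lncRNA known in mouse to restrain the pro-death gene Bcl2l11 in myeloid cells; 17 gene desert regions overlapped Morrbid. Of the 22, 12 were called in all 6 libraries, and the chain counted 20, 21 and 21 calls after tunicamycin and 22, 14 and 14 after DMSO. Its region at chr2:128294383-128295516 had folds of 10.3, 9.81 and 10.9 after tunicamycin and 10.2, 10.0 and 9.51 after DMSO, overlapping groups. The region over the Morrbid promoter printed above had 6.18, 5.20 and 6.23 after tunicamycin and 5.60 and 6.39 in DMSO libraries 1 and 2, with no call in DMSO library 3. Other long chains stood between Serp2 and Lacc1 (20 regions), Irf2bp2 and Tomm20 (17), Haao and Zfp36l2 (16, of which 11 in all 6), Ly86 and Rreb1 (16) and Uaca and Tle3 (16).

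Firre, an X-linked lncRNA gene that escapes X inactivation, had a chain whose calls did not follow the libraries' general call rates. Its 14 regions were called 7, 7 and 13 times after tunicamycin and 3, 1 and 8 times after DMSO. The other 52 gene desert regions of the X chromosome were called 27, 42 and 40 times after tunicamycin and 44, 20 and 13 times after DMSO. Thus the third library of each group called most Firre regions in its group, and DMSO library 3 did so while calling 25% of the other X regions. These are also the libraries without peaks at Eif2s3y, Uty and Ddx3y, and the part of that difference in the Firre calls was not tested. The single Firre region called in all 6 libraries was the one over its promoter, with folds of 14.4, 9.97 and 7.39 after tunicamycin and 13.2, 8.81 and 7.42 after DMSO. In each group the third library was lowest there, and the groups overlapped.

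**Figure D5:**
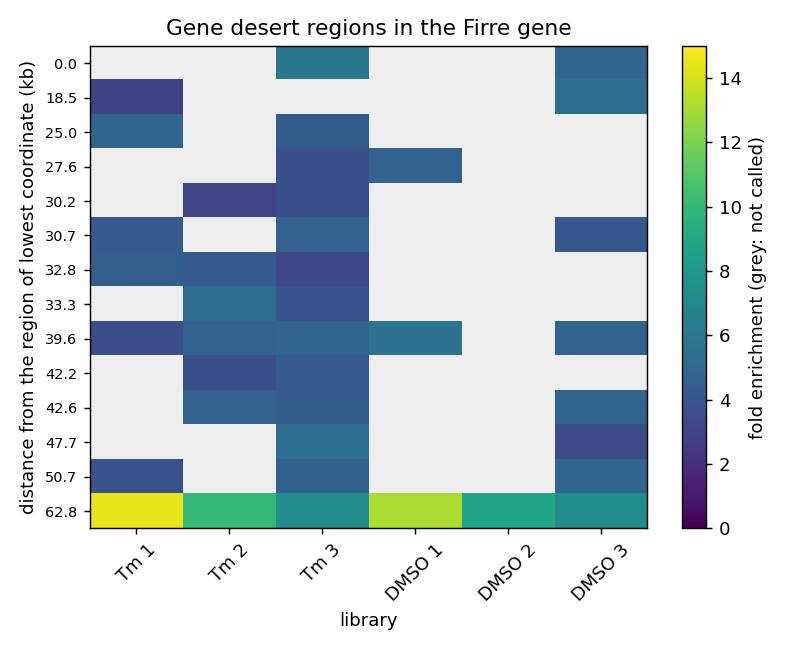
Fold enrichment (colour) of the 14 gene desert regions in Firre, ordered by distance in kb from the region of lowest coordinate (vertical axis), in each library (horizontal axis), tunicamycin (Tm) left of DMSO; grey means not called. The region over the promoter, at the bottom, is coloured in all 6 libraries, and the third library of each group has the most coloured cells of its group, 13 and 8 of 14.

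A few regions had much the same value in every library. The strongest of those called in all 6 was chr12:3109783-3110205, before Rab10, with folds of 25.7, 26.6 and 29.0 after tunicamycin and 28.9, 24.4 and 25.9 after DMSO. The next, chr3:5860270-5860901 beside Pex2, had 20.6, 21.4 and 20.7 after tunicamycin and 23.4, 21.1 and 18.8 after DMSO. A row of 14 regions at the start of chromosome 9, over 38.3 kb before Alkbh8, was called in all 6 libraries at every region. The widest region, chr17:39843044-39847213 (4170 bp), overlapped Rn18s-rs5, annotated as a ribosomal RNA pseudogene, and had low folds of 2.08, 2.26 and 2.19 after tunicamycin and 2.21, 2.21 and 2.36 after DMSO. No list of regions with anomalous signal was at hand, so such regions were kept.

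The other 8 of the 10 highest-ranked regions lay between Nbea and Tm4sf1, after Fgf14, between 9530057J20Rik and Gm15319, between Celf2 and Gata3, before Gdi2, between Uaca and Tle3, between Zfp608 and Gramd3, and between Manea and Epha7. Gata3 encodes a T cell factor that HSCs also express. The region 262.5 kb from Gata3 had folds of 11.7, 13.2 and 14.2 after tunicamycin and 14.4, 14.5 and 10.4 after DMSO. The region 636 kb from Epha7, an ephrin receptor gene, had 15.5, 14.0 and 14.9 after tunicamycin and 12.1, 16.0 and 17.8 after DMSO. The groups overlapped at both.

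Tunicamycin was compared with DMSO region by region. In every tunicamycin and no DMSO library 31 gene desert regions were called, 1.08%, beside 1.01% of all reproducible regions. In every DMSO and no tunicamycin library 12 were called, 0.418%, beside 0.144% of all reproducible regions (81 of 56122). The first share is near the background. The second rests on 12 of 2872 regions, and was 3 of 2222 with stricter peaks (q of at most 1e-05). Lists of equal length gave 6 of 1387. No share over all reproducible regions is given for these settings. The tunicamycin-only and DMSO-only counts both rise as fewer libraries are required. The tunicamycin-only count was 112 of 2700 and 83 of 2658 regions without tunicamycin libraries 1 and 3, and 240 of 2362 without DMSO library 1. The DMSO-only count was 69 of 2362, 35 of 2720 and 56 of 2724 without DMSO libraries 1, 2 and 3. Without the third library of both groups, the counts were 93 called after tunicamycin only and 72 after DMSO only, of 2506 regions. DMSO library 1 had the longest peak list, with 62478 peaks. No share over all reproducible regions is given for these leave-out settings either, so nothing is read from their counts.

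Of the tunicamycin-only regions, the highest ranked lay between Tmem38b and Zfp462 (folds of 7.35, 6.93 and 7.76), between Zeb2 and Acvr2a (6.81, 7.79 and 9.43), 101.6 kb from the prolactin receptor gene Prlr (6.21, 10.00 and 8.34), between Sall3 and Galr1 (7.11, 5.85 and 6.49) and between Dusp10 and Hlx (5.92, 5.61 and 5.87), with no call in the DMSO libraries. The region between Zeb2 and Acvr2a lay 119 kb from Acvr2a, an activin receptor gene, in a gap of 3697 kb. Zeb2, at the other end of that gap, encodes a repressor needed in HSC differentiation. The DMSO-only regions of highest rank lay between Mdga2 and Rps29 (5.71, 5.03 and 4.502), Adamts9 and Magi1 (4.36, 4.09 and 4.22), Mdfic and Tfec (5.04, 4.09 and 4.78), Adamts18 and Nudt7 (4.70, 5.35 and 3.85) and Adamts16 and Irx1 (4.63, 4.27 and 3.75), with no call in the tunicamycin libraries. Among these 10 regions the tunicamycin-only folds ran from 5.61 to 10.00 and the DMSO-only folds from 3.75 to 5.71.

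Among the 622 regions called in all 6 libraries, the fold percentile was higher in every tunicamycin library than in every DMSO library for 49 (7.88%), beside 7.42% of all regions called in all 6, and lower for 5 (0.804%), beside 1.59%. Both shares are near their background or rest on few regions. The regions with the largest differences, chosen after their values were seen, are given as values. A region between Zfp64 and Tshz2 had folds of 6.60, 7.64 and 7.77 after tunicamycin and 4.70, 4.73 and 3.59 after DMSO. One between Mc2r and Tcf4, a gene for an E-protein transcription factor, had 8.62, 8.77 and 7.83 after tunicamycin and 6.11, 4.47 and 4.502 after DMSO. The groups did not overlap at these 2 regions, nor at those between Tnks and Ppp1r3b and between Hmgn3 and Lca5.

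In the opposite direction, a region between Arpp21 and Pdcd6ip had folds of 5.50, 4.19 and 4.32 after tunicamycin and 6.99, 6.47 and 5.28 after DMSO, where the percentiles did not overlap but the folds did. A region between Mmadhc and Rnd3 had 3.26, 4.05 and 4.32 after tunicamycin and 5.37, 5.03 and 5.06 after DMSO. Near the Lncpint promoter, the region at chr6:31216226-31217060 had 5.35, 5.13 and 4.55 after tunicamycin and 6.45, 6.41 and 6.28 after DMSO, and the region 114 kb from Mycn had 4.87, 4.32 and 4.89 after tunicamycin and 7.02, 5.14 and 5.31 after DMSO. The folds of both groups were separate at these 3 regions. With 3 libraries against 3 no single region can pass 0.05, and no p is given for them.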

How the data were processed

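ATAC-seq peak lists of 6 mouse HSC libraries, 3 after tunicamycin and 3 after DMSO as the treatment labels give them, were used. Per the submitters' processing notes, the tools were MACS2, Picard, featureCounts, Bowtie2 2.2.9 and Trim Galore 0.4.4 and the build mm10, with neither role nor settings. Read filters and any shift of read ends are not stated there. Each library has its own list, so peaks were not called on pooled samples. For each peak the authors deposited a score for display, the fold (ratio) of signal over background, −log10 values of p and q, and a summit offset. The deposited fold was used to rank peaks within a library, and the deposited −log10 q-value to filter peaks in 1 alternative. Read depth is unknown, and lists of 28501 to 62478 peaks serve as a guide to sensitivity. On other sequences 109 to 138 peaks per library were left out.

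Peaks on chromosomes 1 to 19, X and Y that overlapped by at least 1 bp were merged into union regions. A region counted as called in a library with a peak there. Merging by bedtools 2.31.1 returned an identical set of 82993. Distances were taken to 21887 protein-coding gene bodies of RefSeq (GRCm38.p6, the assembly that mm10 denotes). A gap is the stretch between neighbouring gene bodies. Libraries were compared between groups by two-sided exact permutation tests, and classes by exact sign flips over 6 libraries, each family with Benjamini-Hochberg adjustment, the code being tested on simulated data. Named were the 10 gaps with most regions, further gaps beside blood transcription factors, the 10 highest-ranked regions called in all 6 libraries (rank is the lowest fold percentile over calling libraries), 5 regions each called in 1 group only, and the regions nearest the threshold. Other regions were chosen after their values were seen. Members and gene lists were chosen with earlier results of these data known. A motif search around summits was planned but needs genome sequence, so motifs were searched in RefSeq promoters, a choice made after seeing the data. Alternatives were stricter peaks, lists of equal length, autosomes only, windows around summits, a required cover of 50%, other distances and numbers of libraries, the replicate number as a block, and each library left out. Software was SciPy 1.17.1, pandas 2.3.3, NumPy 2.4.6 and matplotlib 3.10.9 under Python 3.11.15.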

Additional observations from a re-analysis of the deposited data

How the results depend on the processing

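Of the alternative values, 159 were labelled the same, 38 lost the 0.05 threshold, 5 gained it, 37 moved and 5 changed sign. For counts and shares, the same meant close to the main value, within a set factor or a binomial interval. For tests it meant the same sign and the same side of an adjusted 0.05. Class tests with 5 libraries or fewer cannot pass 0.05, the smallest p with 5 being 0.0625. Their loss of the threshold was fixed in advance. Only peaks with q of at most 1e-05 gave a share of reproducible regions in deserts of 4.69%, a fold percentile 2.47 above intergenic regions (exact p = 0.03125, now past 0.05), a width difference from intergenic regions of -4.33 bp (not past it), 3 DMSO-only regions and 58.1% with a neighbour. Lists of one length gave 1387 regions (4.22%), 6 DMSO-only regions, 49.0% with a neighbour, a percentile 4.22 above intergenic regions (past 0.05) and a tunicamycin minus DMSO percentile difference of -0.593, a change of sign. Autosomes only gave differences of -58.7 and -4.50 bp in width and -8.76 and -3.39 points in call rate from the rest and from intergenic regions, and windows around summits -8.48 and -3.42 points, none past an adjusted 0.05. In both settings the exact sign-flip p stayed at 0.03125, except for autosome width against intergenic regions (0.0625). The adjusted p rose because fewer tests of the family stood at that smallest value. Windows have a fixed width, so they give no width values. A required cover of 50% turned the relative call rate difference between groups to -0.606 points, put the percentile at -4.74 against the rest (past 0.05) and the call rate at -2.64 points against intergenic regions (not past it). A distance over 50 kb gave 5392 regions (9.61%), 64 tunicamycin-only, 19 DMSO-only, 67.9% with a neighbour, a percentile of -4.31 against the rest (past 0.05) and a width of -1.75 bp against intergenic regions (not past it). A distance over 200 kb gave 1213 regions (2.16%), 7 tunicamycin-only, 4 DMSO-only, 52.3% with a neighbour and a relative call rate difference of -0.159 points, again reversed. Calls in 3 or more libraries gave 4.53%, a percentile 1.62 above intergenic regions (past 0.05), a width of -4.00 bp (not past it) and 56.1% with a neighbour. With the neighbour distance halved the share was 47.1%, and with 50 kb it was 72.1%. Beyond the adjustment in the autosome and window settings, the cause of these changes was not tested.

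Without each library in turn, the number of regions was 2362 to 2724 (4.80 to 5.03%), the tunicamycin-only count 36 to 240, the DMSO-only count 13 to 69 and the share with a neighbour 58.0 to 62.7%. No share over all reproducible regions is given beside counts of 1 group only, here or below, so nothing is read from them. Class differences were -8.32 to -6.73 and -3.15 to -2.55 points in call rate and -61.6 to -58.8 and -6.00 to -4.00 bp in width, with 5 libraries allowing no p under 0.0625. Group differences were 2.90 to 28.1 points in desert call rate, 0.157 to 0.481 points in the share of library peaks, -0.603 to 2.61 points in relative call rate and -0.0443 to 8.55 in percentile. Without the third library of both groups, a choice made after seeing the data, the share was 4.84%, the width differences -61.2 and -4.25 bp, the call rate differences -5.39 and -1.69 points, and the counts of regions called in 1 group only 93 after tunicamycin and 72 after DMSO.

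With the replicate number as a block, the difference in desert call rate was 13.4 points (exact p = 0.5) and that in the share of peaks 0.288 points (exact p = 0.25). This block test cannot give a p under 0.25, so it could not change a call. Its values were entered as the same and not judged. Over regions called in all 6 libraries, the values for same-numbered libraries were -0.0831, -0.019 and 0.0305, none over 0.1. A differently numbered pair, tunicamycin 2 with DMSO 1, stood higher, at 0.113. These correlations bear on the numbering only, and not on how alike the libraries are. The numbers were therefore not treated as pairs, although the libraries numbered 3 share the absence of peaks at 3 Y-linked genes.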
